A study of Mus musculus with 6 samples.

Results

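The genes described here are 44 transcripts of blood vessel endothelium, the cell layer that lines arteries, capillaries and veins. They were given as a list of symbols, and each was read from the probe set with the highest mean over all 6 arrays among those that the platform annotation gives to that single gene. All 44 had such a probe set, and all 44 passed the filter that left out the dimmest 25% of probe sets, so they stand among 15027 genes tested. The list was drawn up with earlier results on these arrays known: 8 of its members, Robo4, Adgrl4, Cd93, Hhex, Aqp1, Bcl6b, Pcdh17 and Ppp1r16b, had already been named there. Counts over the list are therefore descriptions and not independent evidence.

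The arrays hold sorted cells of breast tumours that arose in MMTV-Wnt-1 mice, in which a viral promoter active in mammary epithelium drives a Wnt1 transgene. The population labelled tumorigenic (CD24+Thy+CD45-) was profiled in mice TG1, TG2 and TG3. The population labelled nontumorigenic (Not CD24+Thy+CD45-) was profiled in the same 3 mice. Each group therefore has 3 arrays, 1 per animal, and the labels give no age, treatment or strain beyond the transgene. The label of the second population does not settle whether CD45 is negated too.

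Endothelial cells are held together by adherens and tight junction proteins, among them VE-cadherin (Cdh5), and they express adhesion molecules that capture leukocytes from the blood. Their identity is set by transcription factors of the ETS, GATA, LMO and basic helix-loop-helix families, several of which also act in blood stem cells, since both lineages share embryonic precursors. In tumours, vessels deliver oxygen and are a route for immune cells, and endothelial cells belong to the stroma and not to the cancer cells.

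All values are log2 expression values that the authors normalised with RMA (robust multi-array average), so 1 unit is a doubling, and differences are given as tumorigenic label minus nontumorigenic label. Array medians lay between 4.36 and 4.40. Ptprc, which encodes the CD45 antigen that the gate excluded, read 10.21, 7.76 and 3.82 in labelled tumorigenic mice 1, 2 and 3. In labelled nontumorigenic mice 1, 2 and 3 it read 2.33, 3.59 and 2.51. The high Ptprc values of labelled tumorigenic mice 1 and 2 go against the CD45- gate of that label. Cd24a read 11.85, 12.34 and 12.84 under the tumorigenic label, against 12.86, 12.84 and 12.99 under the nontumorigenic label. Thy1 read 10.83, 10.51 and 9.33 under the tumorigenic label, against 10.25, 9.67 and 10.04. The Thy1 value of labelled tumorigenic mouse 3 was the lowest of all 6. Each array is therefore called by its label only. The gap between the 3' and 5' control probe sets of Gapdh, which tracks RNA and amplification quality, was 3.81, 6.60 and 2.62 on the labelled tumorigenic arrays and 3.78, 2.41 and 3.10 on the labelled nontumorigenic arrays of mice 1 to 3. The labelled tumorigenic array of mouse 2 stands apart in this measure, and that of mouse 1 in Ptprc. Bulk arrays cannot tell fewer endothelial cells from less of a transcript per cell, and this holds for every value below.

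Blood endothelial genes as a group read higher in the labelled tumorigenic arrays. Of the 44 members, 43 had a positive difference, against 50.7% of all genes tested, and 33 were positive within each of the 3 mice, against 15.9% of all genes. The median difference of the members was 1.31, beside 0.0051 over all genes tested. Within mice 1, 2 and 3 the members' median was 1.21, 1.81 and 0.85. In 31 members every labelled tumorigenic array lay above every labelled nontumorigenic one, which 6.9% of all genes did, and 0 members lay entirely below, against 5.59% of all genes.

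No member passed after adjustment. By limma with Benjamini-Hochberg adjustment over all 15027 genes, 0 of 44 members had an adjusted p below 0.05, as had 0% of all genes. An unadjusted limma p below 0.05 was found in 32 members, all higher under the tumorigenic label, beside 5.23% of all genes, and in 0 members lower, beside 3.27%. Without the 8 members named earlier, 24 of 36 had such a p and the median difference was 1.22. Without both arrays of mouse 2 the count was 18 of 44, beside 2.87% of all genes higher in that fit, and the members' median was 1.10. After adjustment, 0 members passed in any fit run.

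**Figure D1:**
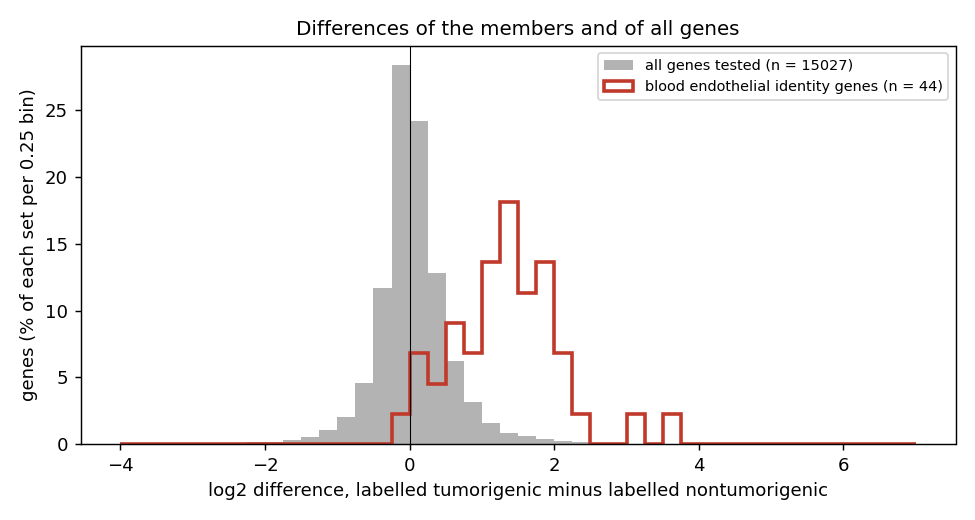
Share of genes (%, per bin of 0.25) by log2 difference, labelled tumorigenic minus labelled nontumorigenic, for the 44 blood endothelial genes (red line) and for all 15027 genes tested (grey bars). The members centre near their median of 1.31, and all genes near 0.0051.

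The 5' ends of the genes with the smallest p that have an entry in the promoter table are shown first. ETS factors are known regulators of endothelial promoters, and whether they bear on the differences here was not tested. The table, from RefSeq on GRCm38.p6, matched 24 of the 44 members with 30 windows, each of 250 bases before to 50 after a gene's start. The 6 letters AGGAAG, an ETS-type motif, or CTTCCT on the other strand, are in capitals below. They occurred in 18 of 30 member windows (60.0%), against 35.4% of 32851 windows of the same length. By gene, 16 of the 24 members had such a window. Some genes have several windows, and those of Ctla2a overlap. The GATA-type letters AGATAA, or TTATCT on the other strand, occurred in 5 of 30 windows (16.7%), against 11.2% of all, with 0 overlaps between both motifs. A match describes letters in the window, not a bound site. Windows of Adgrl4 (chr3:151437632-151437931), Pcdh17 (chr14:84443313-84443612), Hhex (chr19:37434591-37434890), Aqp1 (chr6:55336049-55336348) and Ppp1r16b (chr2:158666483-158666782, the one of its 2 windows with more matches) all lie on the plus strand.
Adgrl4: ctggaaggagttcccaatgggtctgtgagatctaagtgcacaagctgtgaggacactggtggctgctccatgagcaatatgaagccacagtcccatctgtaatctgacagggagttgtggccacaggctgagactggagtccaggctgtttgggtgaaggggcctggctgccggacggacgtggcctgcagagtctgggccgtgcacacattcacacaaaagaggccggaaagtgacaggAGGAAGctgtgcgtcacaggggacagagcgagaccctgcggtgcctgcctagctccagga
Pcdh17: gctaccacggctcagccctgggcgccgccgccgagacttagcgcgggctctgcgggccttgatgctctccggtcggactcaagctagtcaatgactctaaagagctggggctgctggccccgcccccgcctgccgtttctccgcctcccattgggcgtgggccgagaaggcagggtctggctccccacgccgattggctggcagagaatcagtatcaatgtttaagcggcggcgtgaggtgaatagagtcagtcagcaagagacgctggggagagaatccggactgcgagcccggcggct
Hhex: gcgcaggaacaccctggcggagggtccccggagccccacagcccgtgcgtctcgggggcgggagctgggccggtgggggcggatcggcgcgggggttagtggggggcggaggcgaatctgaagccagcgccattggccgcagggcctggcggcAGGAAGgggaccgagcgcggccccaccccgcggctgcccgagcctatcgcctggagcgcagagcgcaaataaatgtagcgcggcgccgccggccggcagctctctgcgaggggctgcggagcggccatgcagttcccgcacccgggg
Aqp1: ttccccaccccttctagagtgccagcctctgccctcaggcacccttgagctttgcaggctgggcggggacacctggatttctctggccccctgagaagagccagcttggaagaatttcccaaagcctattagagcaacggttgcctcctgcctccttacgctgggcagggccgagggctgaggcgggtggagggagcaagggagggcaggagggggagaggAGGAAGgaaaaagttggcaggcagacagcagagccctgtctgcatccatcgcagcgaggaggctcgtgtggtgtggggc
Ppp1r16b: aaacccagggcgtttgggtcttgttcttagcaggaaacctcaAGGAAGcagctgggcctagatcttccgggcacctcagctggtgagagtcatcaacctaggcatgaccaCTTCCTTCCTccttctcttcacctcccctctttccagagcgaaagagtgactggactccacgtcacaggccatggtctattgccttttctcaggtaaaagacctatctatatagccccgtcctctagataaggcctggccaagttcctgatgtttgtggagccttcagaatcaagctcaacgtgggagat
The Ppp1r16b window holds 3 matches, of which a pair overlap, those of Adgrl4, Hhex and Aqp1 hold 1 each, and that of Pcdh17 holds 0.

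Junction and adhesion genes were positive in 5 of 5 members. Pcdh17, a protocadherin, read 6.21, 6.34 and 6.57 in labelled tumorigenic mice 1, 2 and 3, against 2.06, 2.73 and 3.78 in the labelled nontumorigenic arrays. The labelled tumorigenic values lie within 0.36 of each other, all above the other label, and the low side reaches below the dim level of 2.98, so the difference of 3.52 (SE 0.44; limma adjusted p = 0.200) has an uncertain size. A dimmer Pcdh17 probe set read 5.28, 3.30 and 4.10 under the tumorigenic label, against 3.32, 2.32 and 3.12. It gave a smaller difference of 1.31, with overlapping groups. Cdh5, the VE-cadherin that defines the endothelial lineage, read 4.65, 4.77 and 4.47 in the labelled tumorigenic arrays and 4.12, 3.60 and 4.22 in the labelled nontumorigenic arrays. The groups do not overlap, by a margin of 0.25 between the nearest arrays, with a difference of 0.65 (SE 0.22; limma adjusted p = 0.522), and a dimmer Cdh5 probe set gave -0.0096. Pecam1, the CD31 antigen of endothelial junctions and platelets, read 6.13, 6.28 and 5.90 under the tumorigenic label and 6.54, 4.40 and 4.31 under the nontumorigenic label. Here the groups overlap, because the labelled nontumorigenic array of mouse 1 held the highest of the 6 values, and the difference of 1.02 had a 95% interval from -0.47 to 2.51.

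Esam, an adhesion molecule of endothelial tight junctions and platelets, read 7.995, 8.14 and 7.34 under the tumorigenic label in mice 1 to 3, against 6.87, 6.999 and 5.61 under the nontumorigenic label. Its difference was 1.33 (SE 0.43, limma adjusted p = 0.522, or 0.363 with the mouse as a block). It was of like size in every mouse, at 1.12, 1.14 and 1.73. Jam2, a further junctional adhesion molecule, differed by 1.97, 2.63 and -0.016 in mice 1 to 3, so the mean of 1.53 came from mice 1 and 2. Its dimmer probe sets gave 0.46, -0.15 and -0.53. Over the list, 17 members had several probe sets past the filter. In 13 of these all had the same sign, and in 4, Cdh5, Gata2, Myct1 and Jam2, at least 1 dimmer probe set had the opposite sign.

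**Figure D2:**
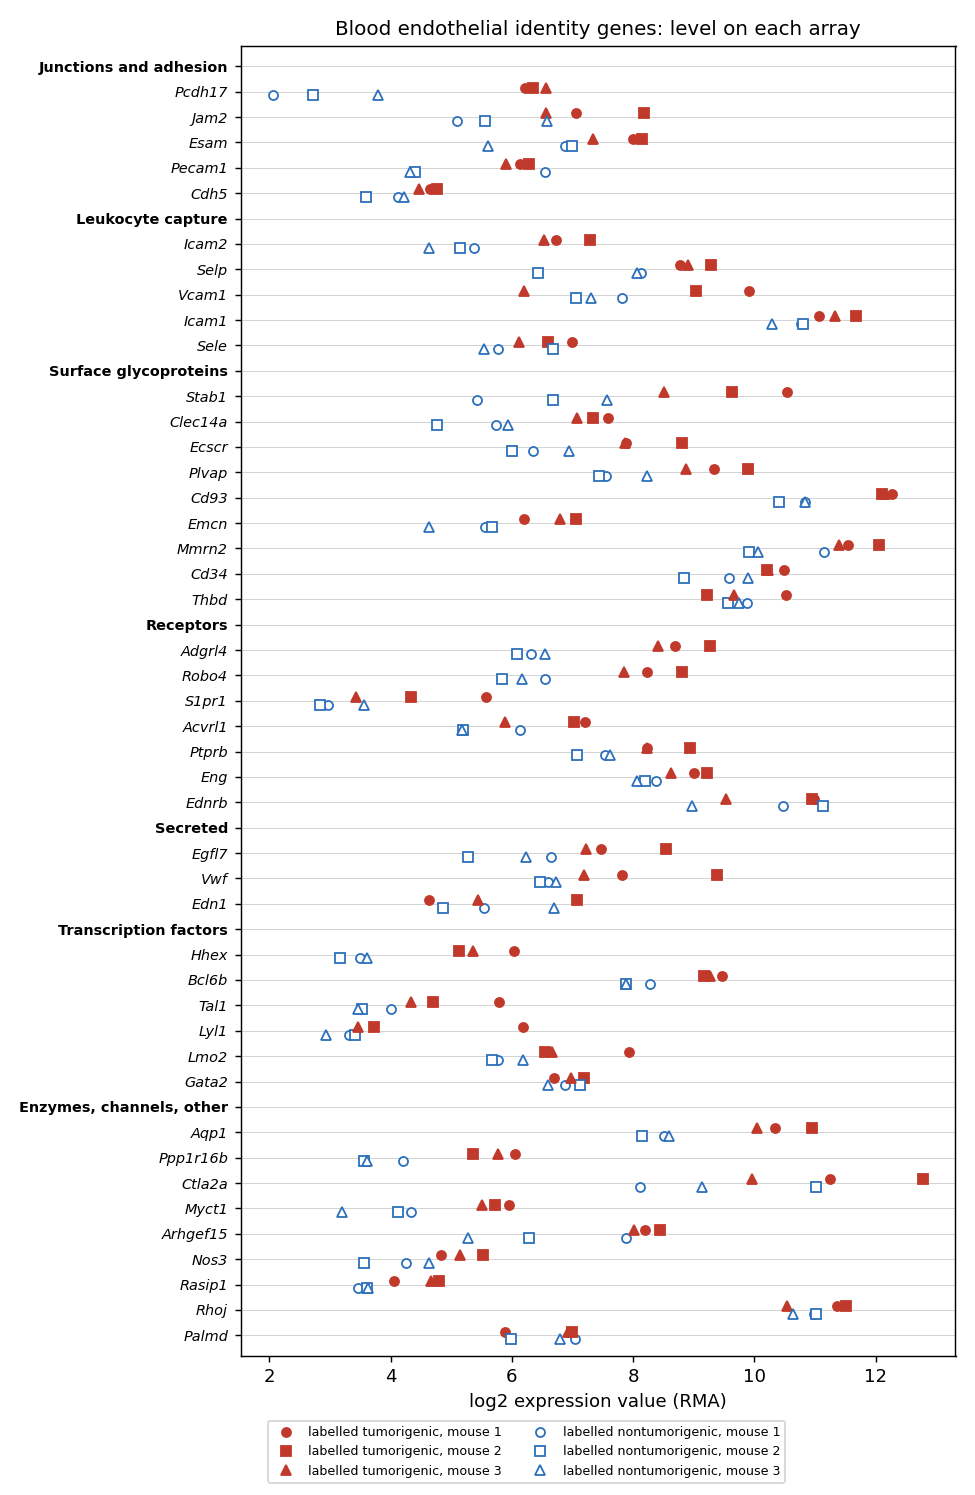
Level of each of the 44 blood endothelial genes on every array (log2 RMA value), ordered by role and then by difference, with labelled tumorigenic arrays as filled red marks and labelled nontumorigenic arrays as open blue marks, 1 marker shape per mouse. In 31 rows all filled marks lie to the right of all open marks, while rows such as Gata2, Thbd, Edn1 and Palmd are mixed.

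The molecules that capture leukocytes from blood were positive in 5 of 5 members. In 3 of them the groups do not overlap, against 6.9% of all genes higher. Icam2, constitutive on endothelium, read 6.73, 7.29 and 6.53 in the labelled tumorigenic arrays, against 5.37, 5.14 and 4.63 in the labelled nontumorigenic arrays, a difference of 1.80 (SE 0.29; limma adjusted p = 0.247). Icam1, which inflammatory signals induce on many cell types, read 11.07, 11.68 and 11.33 under the tumorigenic label, against 10.77, 10.80 and 10.29 under the nontumorigenic label, a smaller difference of 0.74 (SE 0.24; limma adjusted p = 0.521). Selp, the P-selectin stored in endothelial cells and platelets, read 8.78, 9.28 and 8.90 under the tumorigenic label and 8.14, 6.43 and 8.07 under the nontumorigenic label. The low labelled nontumorigenic value of mouse 2 made the Selp difference 0.64, 2.86 and 0.83 in mice 1 to 3. Vcam1, an adhesion molecule of activated endothelium, stroma and macrophages, read 9.92, 9.03 and 6.20 in the labelled tumorigenic arrays and 7.81, 7.05 and 7.30 in the labelled nontumorigenic arrays. Its labelled tumorigenic array of mouse 3 was the lowest of all 6, and the other 2 of that label were the highest. Sele, the E-selectin that cytokines induce on endothelium, read 6.99, 6.60 and 6.12 under the tumorigenic label, against 5.77, 6.69 and 5.54 under the nontumorigenic label, with overlapping groups and an interval from -0.34 to 1.48.

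Surface glycoproteins had positive differences in 9 of 9 members, and in 8 of them the groups do not overlap, against 6.9% of all genes. Cd93, a C-type lectin family receptor that endothelium and myeloid cells carry, read 12.28, 12.11 and 12.15 under the tumorigenic label and 10.83, 10.40 and 10.83 under the nontumorigenic label. The Cd93 difference was 1.49 (SE 0.18, limma adjusted p = 0.200). On this probe set its 3 labelled tumorigenic arrays spanned 0.16, and Ptprc spanned 6.39 over the same arrays. A relation between them was not tested. The dimmer Cd93 probe sets past the filter gave 1.83 and 0.43, and in the latter the labels met at 5.65. Clec14a, a related endothelial lectin, read 7.58, 7.33 and 7.07 under the tumorigenic label in mice 1 to 3 and 5.74, 4.77 and 5.94 under the nontumorigenic label, a difference of 1.85 (SE 0.34; limma adjusted p = 0.259). Mmrn2, a matrix protein that binds CD93 and CLEC14A, differed by 0.40, 2.15 and 1.33 in mice 1 to 3, and its 4 probe sets gave 1.30, 1.70, 1.25 and 1.32.

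Stab1, a scavenger receptor of sinusoidal endothelium and of macrophages, read 10.53, 9.63 and 8.50 under the tumorigenic label in mice 1 to 3, against 5.42, 6.68 and 7.57 under the nontumorigenic label. The within-mouse differences of 5.11, 2.95 and 0.93 fell from mouse 1 to mouse 3, as did Ptprc under the tumorigenic label. The labelled nontumorigenic Stab1 values rose over the same mice, while Ptprc there was highest in mouse 2. A relation between Stab1 and Ptprc was not tested. The mean Stab1 difference of 3.000 had an SE of 0.70 (limma adjusted p = 0.404). Emcn, the endomucin of capillaries and veins, had differences in the opposite order to those of Stab1, at 0.66, 1.38 and 2.16. Plvap, which forms the diaphragms of fenestrated capillaries, read 9.34, 9.89 and 8.87 under the tumorigenic label and 7.55, 7.43 and 8.23 under the nontumorigenic label. Ecscr, a regulator of endothelial motility, read 7.89, 8.80 and 7.87 under the tumorigenic label and 6.35, 6.01 and 6.93 under the nontumorigenic label. Both separate the labels without overlap, with the smallest gap in mouse 3. Cd34, a sialomucin of endothelial and blood progenitor cells, had a difference of 0.87 (SE 0.30; limma adjusted p = 0.522). Thbd, the thrombomodulin that turns thrombin towards anticoagulation, read 10.53, 9.21 and 9.67 in the labelled tumorigenic arrays, against 9.88, 9.57 and 9.74 in the labelled nontumorigenic arrays, with an interval from -0.77 to 0.92, and its labels are mixed.

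Among receptors, 7 of 7 members were positive. Adgrl4 (ELTD1), an adhesion G protein-coupled receptor of vessels, read 8.69, 9.27 and 8.41 in the labelled tumorigenic arrays, against 6.31, 6.09 and 6.54 in the labelled nontumorigenic arrays. The nearest arrays of the 2 labels are 1.87 apart, and its difference of 2.48 (SE 0.27) had the smallest limma adjusted p of the members, 0.177, or 0.363 with the mouse as a block. Robo4, a stabilising guidance receptor of endothelium, read 8.23, 8.80 and 7.85 under the tumorigenic label and 6.55, 5.83 and 6.17 under the nontumorigenic label, a difference of 2.11 (SE 0.31; limma adjusted p = 0.243). Eng and Acvrl1, the co-receptor and receptor through which BMP9 signals in endothelium, had differences of 0.74 and 1.20. Eng read 9.004, 9.22 and 8.62 under the tumorigenic label, against 8.37, 8.20 and 8.06 under the nontumorigenic label, with no overlap. Acvrl1 read 7.21, 7.02 and 5.89 under the tumorigenic label, against 6.14, 5.19 and 5.17 under the nontumorigenic label, and its labelled tumorigenic array of mouse 3 lay within the other group.

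Ptprb, the VE-PTP phosphatase that holds Tie2 signalling down, read 8.22, 8.93 and 8.23 in the labelled tumorigenic arrays and 7.54, 7.07 and 7.62 in the labelled nontumorigenic arrays, a difference of 1.05 (SE 0.27; limma adjusted p = 0.447). S1pr1, a sphingosine 1-phosphate receptor of endothelium and lymphocytes, read 5.57, 4.33 and 3.43 under the tumorigenic label, against 2.96, 2.83 and 3.56 under the nontumorigenic label. Its high values stand in the arrays with high Ptprc, a relation that was not tested, and mouse 3 showed a difference of -0.13. Ednrb, an endothelin receptor, read 10.98, 10.95 and 9.52 under the tumorigenic label in mice 1 to 3, against 10.47, 11.14 and 8.98 under the nontumorigenic label. Both populations of mouse 3 were the low ones, so Ednrb varied more between mice than between labels. The interval for the difference, from the fit without a mouse block, ran from -1.32 to 1.90 and includes that variation. The limma adjusted p was 0.926 in that fit and 0.746 with the mouse as a block.

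Of the secreted members, Vwf, the clotting factor that endothelial cells store with P-selectin, read 7.82, 9.38 and 7.18 under the tumorigenic label and 6.59, 6.47 and 6.72 under the nontumorigenic label. Egfl7, an endothelial matrix protein whose gene hosts a vascular microRNA, read 7.47, 8.54 and 7.22 under the tumorigenic label in mice 1 to 3 and 6.64, 5.28 and 6.23 under the nontumorigenic label. Neither gene overlaps between labels, and both had the highest value in mouse 2 under the tumorigenic label, whose array also has the highest Gapdh 3' to 5' gap. The 4 probe sets of Egfl7 gave 1.69, 0.90, 1.19 and 0.55. Edn1, the vasoconstrictor endothelin, read 4.64, 7.07 and 5.44 under the tumorigenic label and 5.54, 4.87 and 6.69 under the nontumorigenic label. The labelled tumorigenic array was the lower one in mice 1 and 3 and the higher one in mouse 2, with differences of -0.90, 2.19 and -1.25, and the interval of its mean difference ran from -1.77 to 1.80. The ligand Edn1 and its receptor Ednrb thus lacked the separation of most other members.

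Transcription factors were positive in 6 of 6 members. Hhex, a homeobox factor of endothelial and blood precursors, read 6.03, 5.13 and 5.35 under the tumorigenic label in mice 1 to 3, against 3.50, 3.17 and 3.61 under the nontumorigenic label, a difference of 2.08 (SE 0.28; limma adjusted p = 0.220). Bcl6b, a repressor related to Bcl6, read 9.47, 9.17 and 9.27 under the tumorigenic label and 8.27, 7.87 and 7.87 under the nontumorigenic label. The Bcl6b differences were close in the 3 mice, at 1.20, 1.30 and 1.40, for a mean of 1.30 (SE 0.19; limma adjusted p = 0.221).

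Tal1, Lyl1, Lmo2 and Gata2 encode proteins that meet in DNA-bound complexes in blood and endothelial precursors, with Lmo2 as the bridge. Tal1 read 5.78, 4.69 and 4.34 in the labelled tumorigenic arrays and 4.01, 3.52 and 3.46 in the labelled nontumorigenic arrays. Lmo2 read 7.93, 6.55 and 6.66 under the tumorigenic label, against 5.77, 5.67 and 6.19 under the nontumorigenic label. Lyl1, the closest relative of Tal1, read 6.18, 3.72 and 3.46 under the tumorigenic label and 3.32, 3.42 and 2.93 under the nontumorigenic label. For these 3 genes the labelled tumorigenic array of mouse 1, with the highest Ptprc, was the highest, and the groups do not overlap. A relation to Ptprc was not tested. The unadjusted p was below 0.05 for Tal1 and Lmo2 (limma adjusted p = 0.508 and 0.532), and Lyl1 had an interval from -0.53 to 2.996. Gata2 read 6.70, 7.19 and 6.98 under the tumorigenic label, against 6.88, 7.12 and 6.59 under the nontumorigenic label, with a narrow interval from -0.43 to 0.62, and its second probe set gave -0.12. Of these complex members, 3 thus read higher in every labelled tumorigenic array, while Gata2 was mixed. For Lyl1 the margin between the nearest arrays was only 0.041. Its differences were 2.87, 0.31 and 0.53 in mice 1 to 3, so its mean came mostly from mouse 1.

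The remaining members act as enzymes, channels or cytoskeletal regulators, and 8 of 9 were positive. Aqp1, a water channel of capillaries and red cells, read 10.34, 10.95 and 10.04 under the tumorigenic label in mice 1 to 3 and 8.51, 8.15 and 8.59 under the nontumorigenic label, a difference of 2.03 (SE 0.28; limma adjusted p = 0.220). Ppp1r16b, the phosphatase subunit TIMAP, read 6.06, 5.36 and 5.77 under the tumorigenic label, against 4.21, 3.56 and 3.61 under the nontumorigenic label. Its differences were 1.85, 1.80 and 2.16 in mice 1 to 3. The largest was in mouse 3, whose labelled tumorigenic array had the lowest Ptprc of its label. A relation between them was not tested. Myct1, an endothelial membrane protein, differed by 1.61, 1.60 and 2.30 in mice 1 to 3. Rasip1 and Arhgef15, which act in vessel lumen formation and sprouting, differed by 0.94 and 1.74, and neither overlaps between labels.

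Nos3, the endothelial nitric oxide synthase, read 4.83, 5.52 and 5.15 in the labelled tumorigenic arrays and 4.25, 3.56 and 4.63 in the labelled nontumorigenic arrays, a difference of 1.02 (SE 0.33; limma adjusted p = 0.521). Ctla2a, a cysteine protease inhibitor first found in T cells, read 11.25, 12.78 and 9.97 under the tumorigenic label and 8.11, 11.02 and 9.14 under the nontumorigenic label. It varied widely between mice and its labels overlap, although each mouse had a positive difference. The limma adjusted p of Ctla2a was 0.644, or 0.438 with the mouse as a block. Rhoj, which endothelium expresses, and Palmd, a membrane-associated protein, had differences of 0.26 and -0.0055, with intervals from -0.46 to 0.98 and from -1.01 to 0.998. Palmd was the 1 member with a negative mean difference, made of -1.16, 1.01 and 0.13 in mice 1 to 3.

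**Figure D3:**
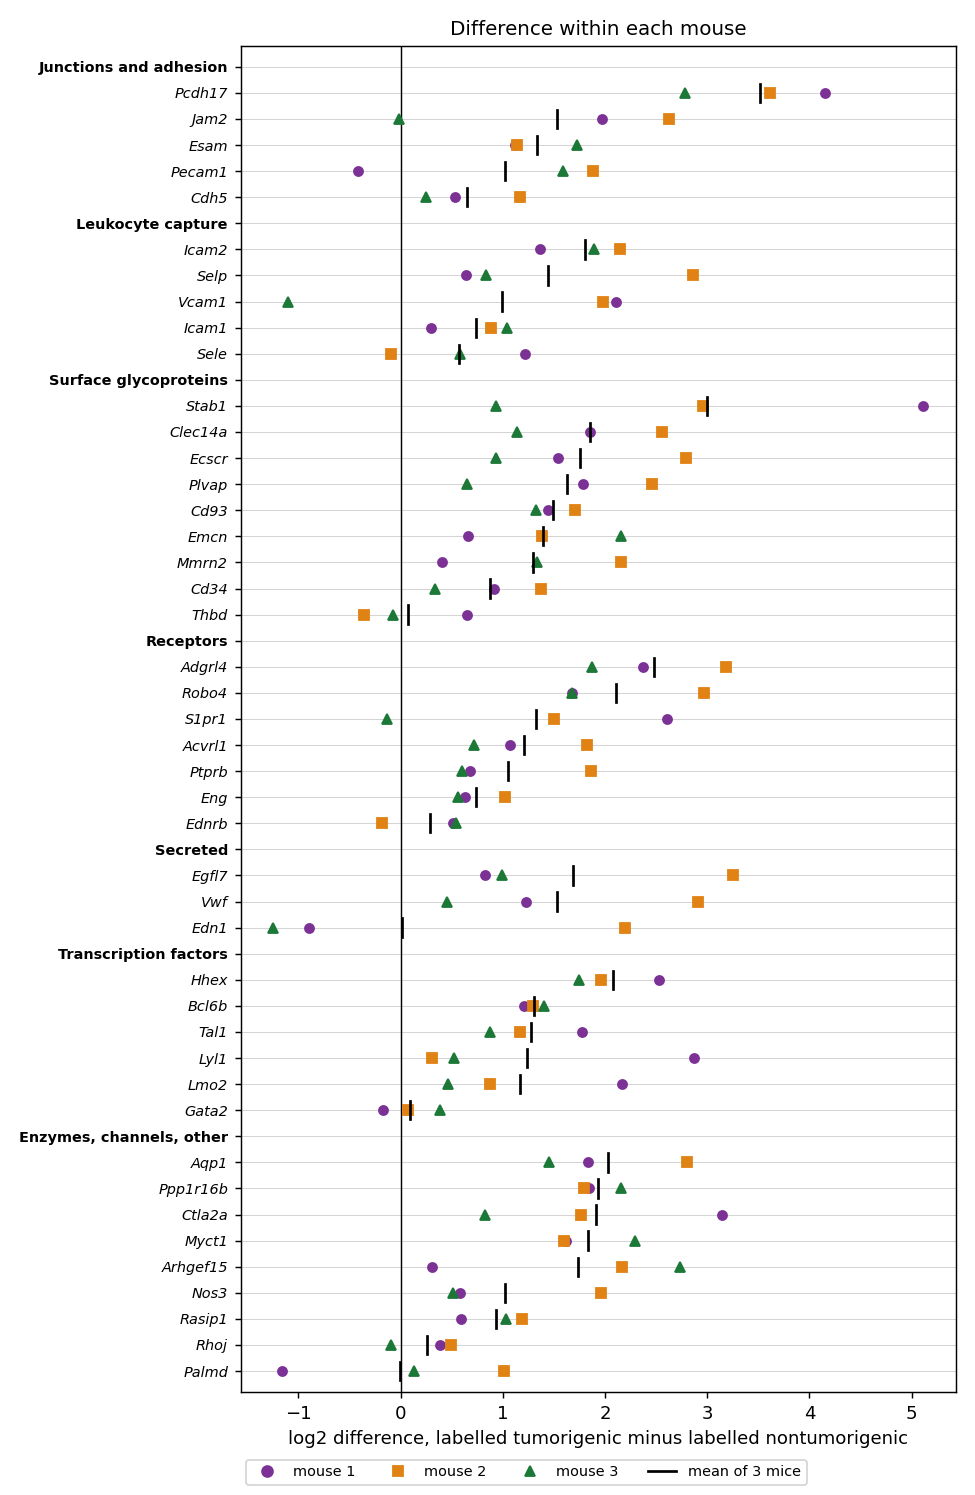
Log2 difference within each mouse, labelled tumorigenic minus labelled nontumorigenic, for the 44 blood endothelial genes by role, with 1 marker per mouse and a black bar at the mean of the 3 mice. Marks to the right of the line at 0 are higher under the tumorigenic label, as 40, 41 and 38 members are in mice 1, 2 and 3.

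The members did not follow the 3 labelled tumorigenic arrays in the same order. The labelled tumorigenic array of mouse 2 held the highest of the 6 values in 24 members, that of mouse 1 in 16 and that of mouse 3 in 1. Among the labelled tumorigenic arrays, mouse 3 was the lowest in 27 members, mouse 1 in 10 and mouse 2 in 7. A division by textbook knowledge set apart 21 members that blood cells express too, such as Stab1, Lyl1, Lmo2, S1pr1 and Cd93, from 23 others. The array of mouse 1 was highest in 11 of these 21 and in 5 of the other 23, and the array of mouse 2 in 9 and 15. The mean over the 21 members was 8.43, 8.20 and 7.55 under the tumorigenic label in mice 1 to 3 and 6.83, 6.64 and 6.70 under the nontumorigenic label. Over the 23 others it was 7.51, 7.99 and 7.32 under the tumorigenic label and 6.47, 6.10 and 6.32 under the nontumorigenic label. The median difference was 1.33 in the first set and 1.30 in the second, and the division was not tested.

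Macrophage and pan-leukocyte transcripts also read higher under the tumorigenic label. Of 17 measured genes 16 had positive differences (50.7% of all genes) and 13 were higher without overlap between labels (6.9% of all genes). Their mean level was 10.24, 8.64 and 5.57 under the tumorigenic label in mice 1 to 3, against 4.25, 4.27 and 4.31 under the nontumorigenic label, and their summed level on the linear scale ran from 1264 to 34806 units under the tumorigenic label and from 576 to 682 under the nontumorigenic label. Itgam was below the dim filter. The labelled tumorigenic array of mouse 3 had the lowest macrophage and pan-leukocyte level of its label. There 31 of 44 members lay above every labelled nontumorigenic array, against 25.4% of all genes. Below every one lay 2, Rhoj and Vcam1, against 3313 of all 15027 genes tested. A member without overlap between labels must lie above the labelled nontumorigenic arrays on this array. The 31 are thus the members counted before and not a separate result, and the counts of 15 and 16 below follow in the same way. The members' median difference on that array from the labelled nontumorigenic mean was 0.83, and it was 0.78 for the 21 members that blood cells express too and 1.09 for the 23 others, and 15 of the 21 and 16 of the 23 lay above every labelled nontumorigenic array. On the same array 13 of the 17 macrophage and pan-leukocyte genes did so too, with a median of 1.004, and 6 of 7 basal epithelial genes, with a median of 1.26.

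Platelet genes, relevant to Vwf, Selp and Pecam1, had 2 positive and 2 negative differences among 4 measured. The positive 2, Gp1bb and Pf4, were higher without overlap between labels, against 6.9% of all genes. The summed platelet level ran from 99.4 to 327 under the tumorigenic label and from 81.3 to 101 under the nontumorigenic label. Pf4, a platelet chemokine, read 8.01, 5.32 and 4.40 under the tumorigenic label, against 4.05, 3.85 and 4.21 under the nontumorigenic label, and Gp6 and Ppbp were below the dim filter. Mast cell genes, relevant to Gata2, were below the filter in 4 of 5, and of the erythroid genes, relevant to Tal1 and Aqp1, Klf1 and Slc4a1 were measured, with differences of -0.37 and 0.11. Pericyte genes, which mark the mural cells around endothelium, had a median difference of 0.035 over 7 genes, with 0 non-overlapping and medians of 0.41, -0.16 and -0.21 in mice 1 to 3. Fibroblast genes had 0.12 over 7, also with 0 non-overlapping, and their medians of 0.86, 0.49 and -0.93 in mice 1 to 3 differed in sign. On the labelled tumorigenic array of mouse 3, 6 of 7 pericyte and 7 of 7 fibroblast genes lay below every labelled nontumorigenic array. Of all 15027 genes tested, 3313 did so. Luminal epithelial genes were lower in 7 of 7, with a median of -1.67 and 6 that do not overlap, against 5.59% of all genes lower. Adipocyte genes were positive in 4 of 4 measured, with a median of 1.83. In 2 of them, Car3 and Adipoq, the labels do not overlap, against 6.9% of all genes higher. Mean adipocyte levels were 4.41, 6.80 and 5.12 in the labelled tumorigenic arrays, against 2.97, 2.96 and 3.44 in the labelled nontumorigenic arrays. They were thus highest in mouse 2, as were 24 of the members. Basal epithelial genes had a median difference of 0.55 over 7, with medians of -0.054, 0.20 and 1.47 in mice 1 to 3, so mouse 3 was the high one. T and NK cell genes had 0.68 over 5, with medians of 3.13, -0.21 and -0.18, so mouse 1 was the high one, and 0 genes of both lists were non-overlapping. The part of these other cell types in the endothelial values was not tested.

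**Figure D4:**
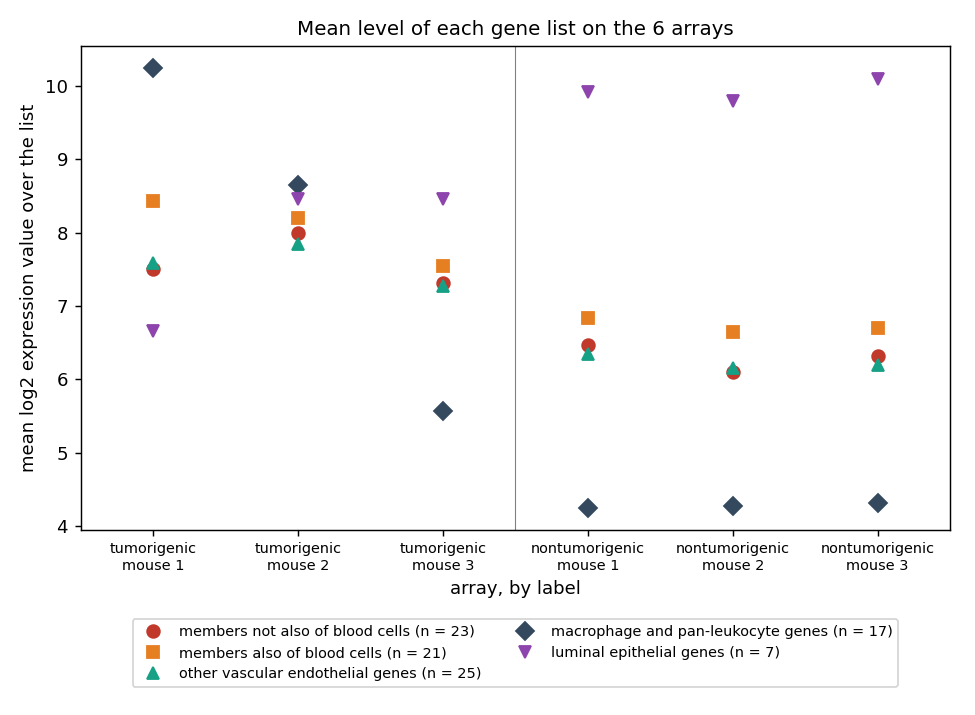
Mean log2 level of each gene list on the 6 arrays, labelled tumorigenic on the left and labelled nontumorigenic on the right, for the endothelial members with and without blood cell expression, other vascular endothelial genes, macrophage and pan-leukocyte genes and luminal genes. The 3 endothelial sets differ by less between labelled tumorigenic mice than the macrophage set, which reads 10.24, 8.64 and 5.57 in mice 1 to 3.

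Further vascular endothelial genes outside the 44 had a like pattern. All 25 measured had positive differences, with a median of 1.25. Of these, 19 did not overlap between labels, against 6.9% of all genes higher. In 17 the unadjusted limma p was below 0.05, against 5.23% of all genes higher, with 0 after adjustment. The mean level of all 25 was 7.58, 7.84 and 7.27 under the tumorigenic label in mice 1 to 3 and 6.35, 6.15 and 6.20 under the nontumorigenic label. Notch4, an endothelial Notch receptor, read 7.66, 8.23 and 7.32 under the tumorigenic label and 5.61, 6.24 and 5.15 under the nontumorigenic label. Gpihbp1, which carries lipoprotein lipase across capillary endothelium, read 8.33, 9.58 and 7.52 in the labelled tumorigenic arrays and 6.37, 5.08 and 5.63 in the labelled nontumorigenic arrays, and Cyyr1 had a difference of 1.88. Some genes of this set were known from earlier results on these arrays too.

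Lymphatic endothelial genes, which would mark a different vessel type, were positive in 6 of 6 measured, with a median of 1.52. In 5 the labels do not overlap, against 6.9% of all genes higher. Flt4, the VEGF-C receptor of lymphatic and some blood vessels, read 8.36, 8.91 and 8.54 under the tumorigenic label in mice 1 to 3 and 6.82, 5.75 and 5.44 under the nontumorigenic label. Prox1, the lymphatic master regulator, read 7.15, 7.74 and 7.05 under the tumorigenic label and 5.76, 5.88 and 6.72 under the nontumorigenic label. Several of the 44 genes, Pecam1, Cdh5 and Ecscr among them, are also expressed by lymphatic endothelium, so the arrays do not assign their values to blood vessels alone.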

How the data were processed

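Sorted cells of 3 MMTV-Wnt-1 mice were profiled on 6 Affymetrix arrays. The deposited table gives 1 log2 value for each probe set and array, which the authors made with RMA, per the submitters' processing notes. Its version was not given in the sources used here, and the log2 scale was read from the values (highest 13.87). Total RNA was amplified before labelling, per the labels' protocols. Of 45101 probe sets, 64 controls were left out, 34945 had 1 symbol, 932 several and 9160 none. Symbols were checked by Entrez identifier against RefSeq (GRCm38.p6); 204 had no match and kept the platform's symbol. Probe sets below log2 2.98 (the lowest 25%) were left out.

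Labels were compared with limma 3.58.1 (R 4.3.3; lmFit, eBayes, all 6 arrays, no covariate, Benjamini-Hochberg over 15027 genes, threshold 0.05), tested on simulated data. Values are per array or mean differences with the SE from limma, and 95% intervals use the moderated variance. Unless stated, SEs, intervals and p-values come from the fit without a mouse block and so include variation between mice. The 3 arrays per label limit precision, and an exact permutation test of 3 against 3 cannot go below 0.1. The labels name the same mice in both populations, so numbers pair the arrays: deviations of same-mouse arrays correlated at 0.079, 0.136 and 0.086. Alternatives covered the mouse block, dim filter, normalisation, variance prior, probe set choice and left-out arrays or mice. Members, lists and the rule for named genes (all members, and up to 5 genes of smallest p per other list) were chosen with earlier results of these data known.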

Additional observations from a re-analysis of the deposited data

How the results depend on the processing

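No member passed the limma adjusted threshold under any of the 16 alternatives, the mouse as a replicate block included (0 of 44, smallest adjusted p = 0.363, against 0.177 without the block). The count of members with an unadjusted p below 0.05 was 32, 31 with the replicate block and 29 of the 39 members left with a 50% dim filter. Beside these, 5.23%, 5.77% and 5.76% of all genes had such a p, higher. The other scalings, priors and probe set choices gave 31 to 33 members, beside 4.92% to 5.01% of all genes. Leaving out 1 array or mouse gave 18 to 34 members. The 18, without both arrays of mouse 2, stand beside 2.87% of all genes higher in that fit. Without only the labelled tumorigenic array of mouse 2 the count was 22, beside 3.05%. The 34, without the labelled tumorigenic array of mouse 3, stand beside 9.04%. The count of members that do not overlap ran from 31 to 37 when arrays or mice were left out, against 9.40% to 21.8% of all genes higher in those fits and 6.9% with all arrays; 1 member lay entirely below without mouse 2. The median difference ran from 1.10 to 1.57. An alternative added after seeing the data used the labelled tumorigenic array of mouse 3 alone. In it 3821 of all 15027 genes tested lay above the labelled nontumorigenic range and 3313 below it. Of the members, 33 lay outside that range, 31 of them above, and their median was 0.83. These 31 are the members that do not overlap with all arrays, so they are not a separate result. Of 699 member values under the alternatives 682 kept their sign. The 17 that did not belong to Gata2, Palmd, Thbd, Ednrb and Edn1, none of them called: Gata2 was -0.010 with the mean of its probe sets and Edn1 -8.9e-04 with arrays centred on their medians. Over left-out arrays and mice, Gata2 ran from -0.051 to 0.23, Palmd from -0.52 to 0.57, Thbd from -0.29 to 0.37, Ednrb from -0.32 to 0.77 and Edn1 from -1.07 to 0.65. The causes were not tested.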
